A study of Mus musculus with 2 samples.

Results

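Brown adipocyte precursor cluster 4 (bAPC 4) is 1 of the 7 groups into which the precursor cells of the cultured brown fat library were sorted by the study, and the one marked by high *Ptprz1*. Its members were the brown library's cells that carry the study's own label for this cluster, so no measured value was used here to pick them. They were 142 of the 1999 brown precursor cells with a label at hand (7.10%, exact binomial 95% interval 6.02 to 8.32%), and unless another group is named they are compared with the other 1857 labelled brown cells (581 bAPC 1, 415 bAPC 2, 171 bAPC 3, 115 bAPC 5, 296 committed adipogenic precursors or bCAPs, and 279 fibro-adipogenic progenitor-like cells or bFAPLs). The 2 libraries of the study together held 12270 captured cells.

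Stromal cells were taken from subcutaneous white and interscapular brown fat of male and female C57/BL6J pups, at postnatal day 0 by the sample labels, and were grown on plastic to confluency, for 4 days by the labels, before droplet-based single-cell RNA sequencing. No group carries a mutation or a drug, and the sexes and pups of a depot were pooled in 1 library. The methods of the study place the animals 1 day later. Each depot therefore had 1 library and no replicate, the depot cannot be told apart from the library, and all intervals given here are 95% intervals that cover counting error only. The brown library held 7009 cells and 205551320 UMIs (unique molecular identifiers, each counting 1 captured transcript). The 142 bAPC 4 cells contributed 4659091 UMIs and the other labelled brown cells 53121611. A bAPC 4 cell had a median of 31156 UMIs (range 16366 to 57104), the highest median of the 7 brown clusters, whose others lay between 23668 and 29000. Levels are given in CPM, the UMIs of a gene divided by all UMIs of the group and scaled to 1000000. Counts of this 3′-end assay were not scaled by gene length, and reads in introns were counted too. No bAPC 4 barcode occurred in the white library.

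*Ptprz1* encodes a receptor-type protein tyrosine phosphatase that binds pleiotrophin, midkine, contactin and tenascins on its outer side, and is best known from glia and their progenitors. Several genes that accompanied it in this cluster (*Ankrd1*, *Ccn1*, *Ccn2*, *Crim1*) belong to the textbook targets of YAP and TAZ, coactivators that enter the nucleus of spread, mechanically loaded cells and act through TEAD transcription factors. In fat precursors, actin stress fibres and YAP activity are known to decline as adipocytes form.

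*Ptprz1* (ENSMUSG00000068748, chromosome 6, 22875502 to 23052916, plus strand, GRCm38) was highest in bAPC 4, for which the study lists it as a marker. Its level was 83.5 CPM (75.4 to 92.2) in bAPC 4, 24.5 (19.4 to 30.5) in bAPC 5, 14.7 (12.9 to 16.5) in bAPC 1, 12.2 (10.3 to 14.3) in bAPC 2, 11.4 (8.47 to 15.0) in bAPC 3, 7.83 (5.96 to 10.1) in bFAPLs and 5.97 (4.42 to 7.90) in bCAPs. The interval of bAPC 4 overlapped with none of the others, bAPC 5 stood above the remaining 5, and bAPC 1, 2 and 3 overlapped with each other. Against all other labelled brown cells at 12.1 CPM the log2 ratio was 2.79 (2.60 to 2.97), and in male cells alone 1.51 (0.91 to 2.07). This is a description, since these counts also went into the clustering, and with 1 library it has no replicate check. The signal was spread over many cells rather than a few: 64.1% (55.6 to 72.0%) of bAPC 4 cells held at least 1 *Ptprz1* UMI against 18.8% of the others, and the 15 cells with most UMIs held 45.2% of the cluster's *Ptprz1* UMIs. With every cell thinned to 10000 UMIs the shares were 38.7% and 8.40%. Glial cells of the same culture, of which 22 were labelled, carried *Ptprz1* at 252 CPM (208 to 303), and the 27 labelled myeloid cells, which should lack it, at 1.30 CPM, with 3.70% of them holding a UMI after thinning (median depth before thinning 17174 UMIs in glia and 29269 in myeloid cells).

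The regions in front of *Ptprz1*, the cluster's marker, and of *Crim1*, a YAP target on chromosome 17 that is among the leading genes of bAPC 4, are shown for comparison of a window without and one with a TEAD motif. Each is the 250 bases before the RefSeq start on the gene's own strand (GRCm38.p6), with copies of the TEAD hexamer GGAATG, searched as GGAATG and as its reverse complement CATTCC, in capitals.
Ptprz1, chr6:22875252-22875501, plus strand: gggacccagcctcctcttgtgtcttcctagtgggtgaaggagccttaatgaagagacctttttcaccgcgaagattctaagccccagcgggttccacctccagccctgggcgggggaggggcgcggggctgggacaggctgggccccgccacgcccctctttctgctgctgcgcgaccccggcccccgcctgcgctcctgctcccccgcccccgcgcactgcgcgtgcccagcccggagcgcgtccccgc
Crim1, chr17:78199998-78200247, plus strand: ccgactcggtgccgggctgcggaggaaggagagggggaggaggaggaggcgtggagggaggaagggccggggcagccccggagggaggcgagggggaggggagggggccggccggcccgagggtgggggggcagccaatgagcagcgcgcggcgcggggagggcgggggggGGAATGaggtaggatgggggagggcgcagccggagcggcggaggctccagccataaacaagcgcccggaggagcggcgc
The *Crim1* window, at 77.6% G and C, held 1 copy, beginning 79 bases before the start, and the *Ptprz1* window, at 71.6% G and C, held none. Of the 20 leading genes defined below, 14 had such a window in the table and 4 (*Ankrd1*, *Ptchd4*, *Lmod1* and *Crim1*) had the hexamer in it. Counted by window, it was in 5 of their 20 windows and in 2 of 10 windows of the 15 leading lower genes, also defined below. Those 2 were windows of *Pde1a*. The hexamer was in 10.3% of the 9249 windows of genes tested and in 12.6% of all 32851 windows, and a match says nothing about binding.

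Of 8968 genes at 10 CPM or more in either sum, 88 (0.981%) were at least 2-fold higher in bAPC 4 and 61 (0.680%) at least 2-fold lower, and the median log2 ratio of all was -0.02. With every cell thinned to 10000 UMIs the counts were 120 higher and 145 lower, and at a minimum of 50 CPM they were 44 and 6, so which side was larger depended on the setting. The 20 leading higher genes were the ones with the highest ratios among those at 20 CPM or more in bAPC 4, and all 20 had their highest level of any brown cluster there. Secreted and matrix-associated products made up 1 group of them. *Ccn2* (ENSMUSG00000019997, chromosome 10, 24595442 to 24598683), which encodes the matricellular growth factor CTGF, was at 505 CPM in bAPC 4, 69.2 in bAPC 1, 168 in bAPC 2, 60.0 in bAPC 3, 117 in bAPC 5, 125 in bCAPs and 192 in bFAPLs, a log2 ratio over the others of 2.08 (2.01 to 2.14). The bFAPLs came next, well below bAPC 4, and bAPC 1 and bAPC 3 were lowest. *Cemip* (ENSMUSG00000052353, chromosome 7, 83932857 to 84086502), whose product degrades hyaluronan, was at 868 CPM against 68.7 in bAPC 3 and 313 in bFAPLs, the lowest and highest of the others, with a log2 ratio of 2.09 (2.04 to 2.15).

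*Thbs1* (ENSMUSG00000040152, chromosome 2, 118111876 to 118127133), encoding thrombospondin 1, was the most abundant leading gene at 1805 CPM, against 434 in bAPC 3 and 1021 in bAPC 5, with a log2 ratio over all others of 1.34 (1.31 to 1.38). It was found in all 142 cells, but also in 96.6% of the other brown cells and 55.6% of myeloid cells, so its detection does not set the cluster apart. *Inhba*, which encodes the activin A subunit, was at 193 CPM against 72.1 in the other cells together (log2 ratio 1.42), and *Crim1*, a transmembrane binder of BMPs, at 204 against 72.8 (1.49). Against the bFAPLs alone, at 100.0 and 152 CPM, the ratios of *Inhba* and *Crim1* were 0.95 and 0.43. These 5 genes code for proteins that leave the cell or face its outside, and in each the bAPC 4 interval lay above that of every other brown cluster.

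A further group codes for proteins of the contractile apparatus, of sarcomere-like structures and of cell junctions. *Ankrd1* (ENSMUSG00000024803, chromosome 19, 36111961 to 36120099), a YAP target best known from stressed heart muscle, was at 78.1 CPM (70.3 to 86.6) in bAPC 4, 25.1 in bFAPLs, 20.8 in bAPC 3, 17.1 in bAPC 2, 7.31 in bCAPs, 5.88 in bAPC 5 and 5.49 in bAPC 1 (log2 ratio 2.65, 2.46 to 2.83). The order of the other clusters differed from that for *Ptprz1*, with bAPC 5 near the bottom. *Lmod1*, a smooth muscle leiomodin that nucleates actin, was at 144 CPM against 50.4, *Dmd* (dystrophin) at 71.3 against 24.4 and *Synpo2*, an actin bundler, at 49.8 against 19.4. *Jph2*, which ties membranes to the sarcoplasmic reticulum, was at 20.8 CPM against 7.68, *Lims2*, a partner of integrin-linked kinase, at 20.6 against 7.57 and *Pkp2*, a desmosomal plakophilin, at 42.1 against 15.7. Against the bFAPLs alone *Pkp2* (log2 ratio 2.55), *Ankrd1* (1.64), *Dmd* (1.08) and *Jph2* (1.05) were past 2-fold. *Lmod1* (0.99), *Synpo2* (0.94) and *Lims2* (0.66) were not. Against the bCAPs alone *Dmd* (0.98) and *Synpo2* (0.88) were under 2-fold, and the other genes of this group were past it. Among the rest were the patched-domain gene *Ptchd4*, listed among p53 targets, at 98.7 CPM against 21.9 (2.18), the RNA editing enzyme gene *Adarb1* at 57.3 against 18.5 (1.63), *Prune2* at 38.4 against 11.6 (1.73) and the BMP receptor gene *Bmpr1b* at 151 against 59.3 (1.35). For p53 targets as a list, *Ptchd4* was the only gene of 14 tested at least 2-fold higher, beside 0.981% of all genes, and the list's median was -0.05.

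**Figure D1:**
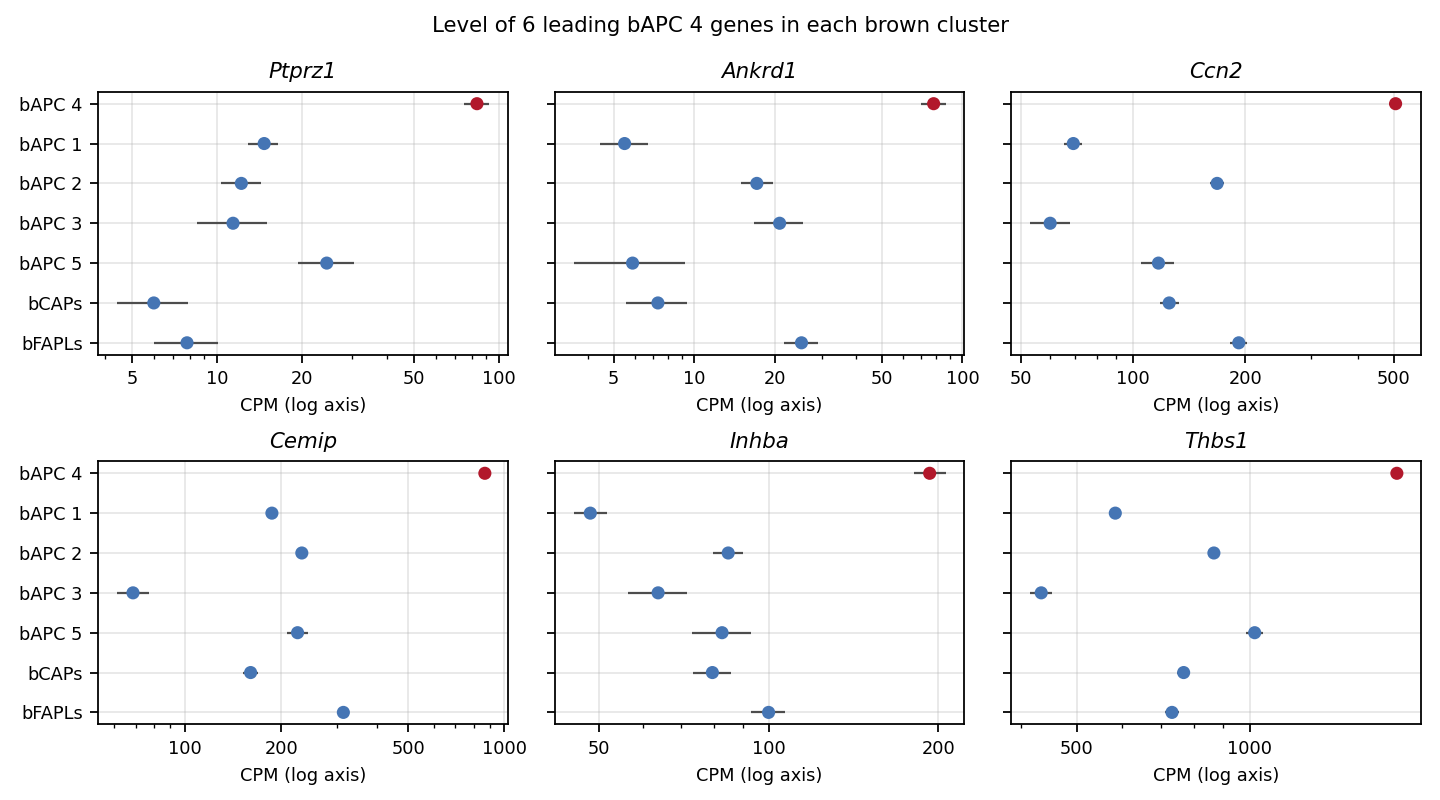
Level of 6 leading genes in the 7 brown clusters, in CPM on log axes. Points are levels from summed UMIs (red bAPC 4, blue the other clusters) and bars are 95% Poisson intervals that cover counting error only. In all 6 panels bAPC 4 lies to the right of every other cluster, from 78.1 CPM for Ankrd1 to 1805 CPM for Thbs1.

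Known YAP targets were higher in bAPC 4 as a list. The list was chosen with earlier results of these data known, so its values are a description. Of 13 tested, 4 were at least 2-fold higher (beside 0.981% of all genes), none was 2-fold lower, and the median log2 ratio was 0.75 beside -0.02 for all genes, while in the other 6 brown clusters the same list's median against the rest lay between -0.22 in bAPC 2 and 0.22 in bFAPLs. The 4 were *Ankrd1*, *Ccn2*, *Crim1* and the stress kinase gene *Nuak2*, which was at 15.9 CPM against 7.08 (1.17, 0.79 to 1.53). Against the bFAPLs alone *Ankrd1* (1.64) and *Ccn2* (1.40) were past 2-fold, and *Nuak2* (0.60) and *Crim1* (0.43) were not. Below 2-fold over all other cells came the angiomotin-like gene *Amotl2* at 143 CPM against 73.0 (0.96), *Tead1*, the transcription factor partner itself, at 517 against 292 (0.83), *Ccn1* at 378 against 224 (0.75), the LIM protein gene *Ajuba* (0.66), the guanine exchange factor gene *Arhgef17* at 59.7 against 44.9 (0.41) and the Hippo kinase gene *Lats2* at 88.0 against 56.7 (0.63). *F3*, the tissue factor gene and the most abundant member, was at 687 CPM against 551 (0.32). The receptor kinase gene *Axl* had a log2 ratio of 0.05 (-0.09 to 0.19) and the phosphatase gene *Ptpn14* of -0.21 (-0.42 to -0.00). The summed level of the list was 2844 CPM in bAPC 4, and 1324 in bAPC 5 to 1976 in bFAPLs elsewhere.

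Smooth muscle contractile genes showed the same direction with smaller ratios. All 12 were tested, 2 were at least 2-fold higher beside 0.981% of all genes (*Lmod1*, above, and the calponin gene *Cnn1* at 217 CPM against 107, log2 ratio 1.02), and the median was 0.55 beside -0.02 for all genes. *Acta2*, the smooth muscle actin gene and the most abundant, was at 5732 CPM in bAPC 4 and at 5685 in bAPC 2, which overlap in their intervals, and *Myh11*, the smooth muscle myosin, was at 26.4 CPM, above 3.73 in bAPC 1 but below 48.4 in bFAPLs. Summed over the list, bAPC 4 had 15948 CPM and the bFAPLs 14315. Each against its own rest, the bFAPLs had a list median of 0.35 with 2 of 12 at least 2-fold higher, and bAPC 2 one of 0.21. In the remaining clusters it lay between -0.68 in bAPC 1 and 0.03 in bAPC 5. Genes that link actin to focal adhesions, a list added after values had been seen, had 6 of 29 at least 2-fold higher, beside 0.981% of all genes, and a median of 0.53 beside -0.02. As it was picked on these values, nothing is read from its count. Vinculin (*Vcl*) was at 675 CPM in bAPC 4 and at 252 in bAPC 3 to 424 in bCAPs, and *Pdlim5*, a PDZ and LIM protein of the Z-disc, at 518 and at 191 to 347. *Lims2* and *Synpo2*, above, were also past 2-fold. *Lpp*, the most abundant member at 1127 CPM against 622 (0.86), *Fermt2* (kindlin 2) at 412 against 233 (0.82) and *Zyx* (zyxin) at 308 against 189 (0.71) stayed under the limit.

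**Figure D2:**
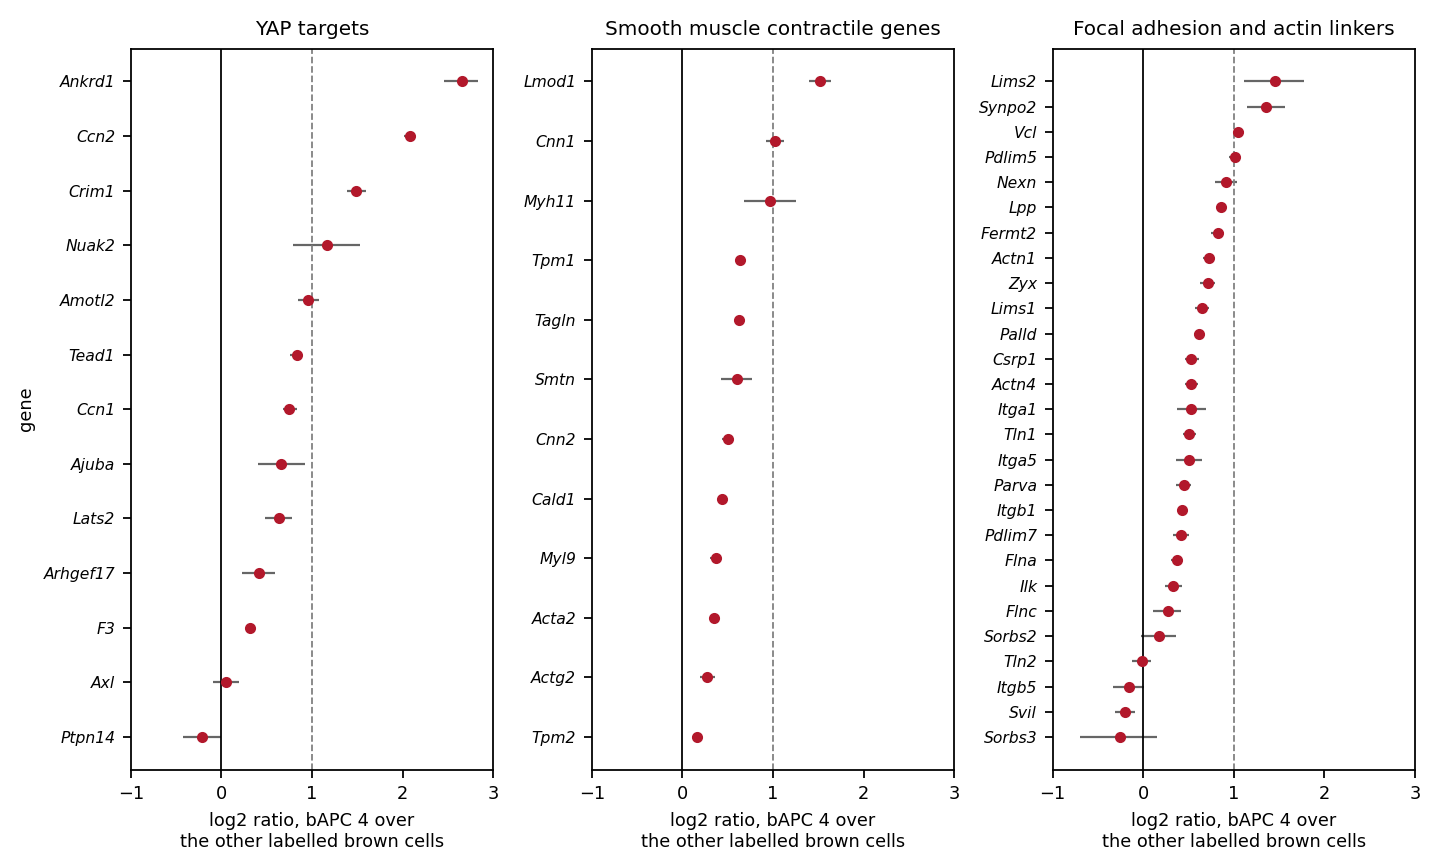
Log2 ratio of bAPC 4 over the other labelled brown cells for tested genes of 3 lists (27 of the 29 focal adhesion genes are drawn), with 95% counting intervals. The solid line marks no difference and the dashed line 2-fold. Of the YAP targets 11 of 13 lie right of 0 by more than their interval, and the highest value is 2.65 for Ankrd1.

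Markers of pericytes and vascular smooth muscle were, in their sum, near the level of the other cells together, which include the bFAPLs. This sum was above that of each of the remaining 5 clusters, while single markers went both ways. Of 10 mural markers 6 were tested, none was 2-fold higher and 1 was 2-fold lower (beside 0.981% and 0.680% of all genes), and the median was 0.18. Against bAPC 1 alone 2 of 5 were at least 2-fold higher (median 0.38; 1.22% of all genes) and against bCAPs alone 3 of 6 were higher and 1 lower (median 0.58; 1.90% and 2.98%). *Rgs5* was at 3.65 CPM against 16.2, *Abcc9* at 2.15 against 8.66, *Kcnj8* at 0.644 against 3.37 and *Higd1b* at 0, while *Cspg4* (25.5 against 23.2) and *Notch3* (26.2 against 25.9) were level. The list summed to 114 CPM in bAPC 4 and 117 in the other cells, with *Myh11* its most abundant member, to 299 in bFAPLs, and to 72.6 in bAPC 3 up to 102 in bAPC 5 among the rest. Glial markers, of interest because glia carry *Ptprz1*, summed to 21.0 CPM against 23.6, most of it *S100b* at 13.3 against 15.2 CPM. Of its 10 genes 4 were at 0 in bAPC 4, among them the defining genes *Erbb3*, *Foxd3* and *Gfra3*, and *Sox10* was at 0.429 CPM. Myeloid markers summed to 14.8 CPM (most abundant *Csf1r*, 4.72), myogenic markers to 10.9 (*Myl4*, 7.73), mesothelial markers to 10.1 (*Krt19*, 9.87 against 5.63), epithelial markers to 0.644 (*Epcam*, 0.215) and mature adipocyte markers to 4.72 (*Lipe*, 2.79), and no gene of these 5 lists reached 10 CPM in either sum. Of the endothelial markers 2 were tested, *Flt1* at 46.6 against 27.3 CPM and *Egfl7* at 10.7 against 14.4, of the tendon markers *Tnmd* at 258 against 194 and *Fmod* with a log2 ratio of 0.20, and of the cartilage and bone markers *Sox9* at 105 against 91.3 and *Runx2* at 67.8 against 72.7. The part of these cell types in the results was not tested.

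Of 9 ligand genes of the PTPRZ1 protein 5 reached 10 CPM in either sum, and none of these was past 2-fold in bAPC 4. *Ptn*, which encodes pleiotrophin, was the most abundant at 2347 CPM in bAPC 4, between 486 in bFAPLs and 3778 in bAPC 5, and *Mdk* (midkine) was at 113 CPM, between 89.0 in bCAPs and 173 in bAPC 5. *Tnc* (tenascin C) was at 403 CPM in bAPC 4 and 405 in bAPC 5 but at 155 to 349 in the other 5 clusters. *Ncam1* was at 321 CPM against 234 (log2 ratio 0.46). These were 4 of the 5 ligand genes tested, whose median was -0.09 and turned to 0.46 with every gene of at least 1 UMI in each sum and to 0.18 at 50 CPM, and *Cntn1*, the contactin, was at 1.07 CPM. Among 10 genes for substrates and scaffolds of the phosphatase, none was past 2-fold and the median was 0.16, with *Fyn* at 125 CPM against 88.7 (0.50), *Magi1* at 311 against 231 (0.43) and *Src* with a log2 ratio of 0.45. Of the other receptors for these ligands the anaplastic lymphoma kinase gene *Alk* was near absent at 1.72 CPM, *Ptprg*, the closest relative of *Ptprz1*, was level at 137 against 132 CPM, and *Sdc4*, a syndecan, was at 63.5 against 43.5.

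In the TGF-beta and BMP list 3 of 23 genes were at least 2-fold higher, beside 0.981% of all genes, none was lower, and the median was -0.05 beside -0.02 for all genes. *Ccn2*, which also counts as a YAP target, and *Inhba* were among the 3. The ligand genes *Tgfb2* (45.1 against 23.3 CPM, log2 ratio 0.95) and *Tgfb3* (126 against 71.6, 0.82) and the latent binding proteins *Ltbp1* (36.5 against 20.7) and *Ltbp2* (285 against 187) were highest in bAPC 4 of all brown clusters, whereas *Tgfbr3*, the betaglycan co-receptor, was at 79.4 against 141 (-0.83). *Id1*, *Id2* and *Id3*, direct targets of BMP signalling, were at 116, 104 and 477 CPM against 124, 119 and 571. Among other lists, *Adm*, encoding adrenomedullin, was the 1 hypoxia gene of 10 past 2-fold (103 against 49.3 CPM), *Col8a1* was at 462 against 222 CPM among 27 collagen and fibrillar matrix genes, of which 2 were higher and 1 lower beside 0.981% and 0.680% of all genes, and *Igf1r*, the IGF1 receptor, was at 389 against 204 (0.93). The collagen list as a whole had a median of 0.08.

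Genes lower in bAPC 4 included several that mark the bCAPs and the bFAPLs. The 15 leading lower genes, at 20 CPM or more in the other cells, ran from *Hp* (haptoglobin) at 12.0 CPM against 65.8 (log2 ratio -2.45, -2.86 to -2.07) to the semaphorin receptor gene *Plxna2* at 13.7 against 31.6 (-1.20). For *Hp* the difference came from the bCAPs at 308 CPM and the bFAPLs at 54.7, and bAPC 1, 2 and 3 were at 14.1, 18.6 and 15.7. Likewise *Serpinb1a* was at 5.58 CPM against 20.7, with bAPC 1, 2 and 3 between 5.48 and 7.01 and the bFAPLs at 94.5, and *Meox2* at 9.01 against 29.6, with bAPC 1, 2 and 3 between 10.7 and 15.6, bAPC 5 at 74.3 and the bFAPLs at 97.9. *Gas7* (10.1 against 32.2), the phosphodiesterase genes *Pde1a* (15.2 against 47.7) and *Pde7b* (20.6 against 56.5), the collagen genes *Col23a1* (8.80 against 27.3) and *Col14a1* (23.6 against 63.5), and the pro-apoptotic *Bcl2l11* (10.1 against 29.9) followed. Also among them were *Trps1*, *Cxcl5*, *Serping1* and the histone gene *Hist1h1b* (27.7 against 67.7). *Hist1h1b* is made in S phase, and among G1 cells its ratio was 0.32.

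Of 12 precursor markers tested none was 2-fold higher in bAPC 4 and 1, *Pdgfra*, was 2-fold lower (0.981% and 0.680% of all genes), and the median was -0.30 beside -0.02 for all genes. *Lum*, which encodes the matrix proteoglycan lumican, was at 38.4 against 72.0 CPM (-0.91) and *Ly6a*, which encodes the surface antigen SCA-1, at 23.4 against 36.0 (-0.62). *Pdgfra*, the surface marker of fat precursors, was at 42.7 CPM (37.0 to 49.1) in bAPC 4 and at 62.1 in bAPC 2, 78.5 in bFAPLs, 82.4 in bAPC 3, 92.2 in bAPC 1, 103 in bAPC 5 and 112 in bCAPs, so bAPC 4 was below all others by more than the counting interval (log2 ratio -1.01, -1.23 to -0.81). The *Pdgfra* ratio fell short of 2-fold after thinning (-0.95), with carried-over labels (-0.92), under median-of-ratios scaling (-0.99) and in male cells (-0.56). *Pdgfrb* was at 126 against 149 CPM (-0.24). *Dlk1*, a marker of immature precursors, was at 271 CPM, below bAPC 1, 2, 3 and 5 (375 to 1021) and above bCAPs (136) and bFAPLs (144). *Pparg*, the master regulator of fat formation, was at 66.1 CPM, level with bAPC 1 at 66.4 and between bAPC 5 at 12.4 and bCAPs at 92.8, and its target *Fabp4* was at 156 CPM, second to the bCAPs at 302. The cluster's label calls it early, and on *Pparg* and *Fabp4* it was not the lowest. Over the other cells together their log2 ratios were 0.22 and 0.31. With carried-over labels *Pparg* turned to -0.06, and with the cells given their own label back *Fabp4* turned to -0.08. *Zic1*, a brown-lineage marker, was at 22.8 against 10.2 in bAPC 5 and 33.6 in bCAPs.

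Of 15 tested adipogenic transcription factor genes none was past 2-fold, with a median of -0.21. The members furthest from 0 were *Cebpa* at 22.8 CPM against 39.2 (-0.78), *Zfp423* at 26.8 against 45.1 (-0.75) and *Ebf2* at 107 against 170.3 (-0.67), all 3 lower. Of 14 thermogenic genes only *Esrrg* (39.3 against 23.2 CPM) and *Esrra* (11.8 against 11.3), which encode estrogen-related receptors, reached 10 CPM in either sum. The genes that the study names for the progenitor-like FAPLs, a list chosen on these samples and so no independent evidence, had 2 of 10 lower, *Serpinb1a* and *Meox2*, beside 0.680% of all genes, and a median of -0.41. The bFAPLs are part of the comparison group, and the same median was -0.50 in bCAPs, -0.65 in bAPC 5, -0.86 in bAPC 1, -0.98 in bAPC 2 and -1.09 in bAPC 3, each against its own rest. Against bAPC 1 alone it was 0.17 in bAPC 4. *Cryab*, a small heat shock protein gene, was at 89.7 CPM against 445 in bFAPLs. Of 14 Hox genes tested none was 2-fold higher and 1, *Hoxb8* at 4.08 against 12.0 CPM, was lower, beside 0.680% of all genes, with a median of -0.55 beside -0.02.

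Cells of bAPC 4 were the least often scored in G2/M of the 7 clusters. The share was 10.6% (6.03 to 16.8%), against 13.3% in bAPC 2, 13.9% in bAPC 5, 16.4% in bAPC 1, 17.2% in bCAPs and in bFAPLs and 46.2% in bAPC 3, and only the interval of bAPC 3 lay apart from it. In G1 were 76.8% and in S phase 12.7% of bAPC 4 cells, against 65.6% and 15.8% of the others. Of 50 G2/M genes tested 4 (*Ccnb2*, *Ckap2l*, *Nuf2* and *Aurkb*) were at least 2-fold lower, beside 0.680% of all genes, and none higher, with a median of -0.53 beside -0.02, and the 34 S-phase genes had none past 2-fold and a median of -0.38. *Ccnb2*, cyclin B2, was at 22.5 CPM against 48.9 (-1.12) and *Mcm5*, a replication licensing factor, at 16.1 against 27.2 (-0.76). The study had regressed its own phase scores out before it clustered. Among G1 cells alone the *Ptprz1* ratio was 3.15 (2.92 to 3.37), against 2.31 in S and 1.83 (1.24 to 2.39) in G2/M cells. *Ankrd1* had a ratio of 2.91 in G1, 0.16 (-0.70 to 0.91, from 15 UMIs) in S and 3.67 in G2/M cells, and in the 15 G2/M cells *Jph2* was at 0.17, *Pkp2* at 0.48 and *Lims2* at 0.85, all 3 with intervals that include 0. *Thbs1* was at 1.33, 1.27 and 1.39. In G1 all 20 leading genes kept a ratio of at least 2-fold, and the G2/M list median was -0.09. In male cells that median was 0.28, with 13.3% of bAPC 4 and 14.9% of other cells in G2/M, and in female cells -0.72, with 10.2% and 19.2%.

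Single bAPC 4 cells differed in which of the leading genes they carried. At 10000 UMIs a bAPC 4 cell held a UMI of a median of 10.0 of the 20 genes (range 2 to 18), and a cell of the other clusters of 5.00 (range 0 to 16). At least 10 were found in 59.2% (50.6 to 67.3%) of bAPC 4 cells, and in 2.34% of bAPC 3, 3.44% of bAPC 1, 7.77% of bCAPs, 9.16% of bAPC 2, 12.2% of bAPC 5 and 12.9% of bFAPLs. The groups overlap between 2 and 16 genes, and with the genes chosen on these cells the difference is no test. Over the 142 thinned cells, Spearman's rho was 0.35 between *Ankrd1* and *Ccn2*, 0.28 between *Ptprz1* and *Ccn2* and 0.26 between *Ccn2* and *Thbs1*, but -0.14 between *Ankrd1* and *Cemip* and -0.01 between *Ccn2* and *Cemip*. These are descriptions of sparse counts from 1 library. *Thbs1* ran from 107 to 5576 CPM over single cells with a median of 1487, and *Cemip* from 0 to 7329 with a median of 369 and quartiles of 50.4 and 1204, so *Cemip* varied more from cell to cell than *Thbs1*.

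**Figure D3:**
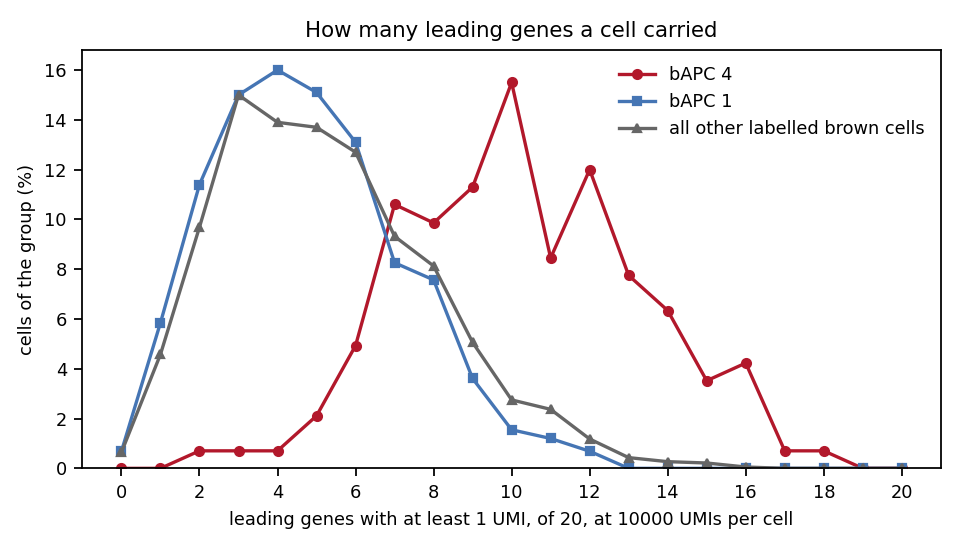
Share of cells (%) by how many of the 20 leading genes they held at least 1 UMI of, with every cell thinned to 10000 UMIs. Lines are bAPC 4 (142 cells), bAPC 1 (581 cells) and all other labelled brown cells (1857 cells). The medians are 10.0 for bAPC 4 and 5.00 for both others, and the distributions overlap between 2 and 16 genes.

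The brown cluster most like bAPC 4 was bAPC 1 (Spearman's rho of 0.970 over 9025 genes, a description), and the other 5 were level with each other between 0.947 and 0.95. The bCAPs, level with the other 4 by this measure, are set beside it as the committed state. Against bAPC 1, 110 genes (1.22%) were at least 2-fold higher and 96 (1.06%) at least 2-fold lower. *Ankrd1* led with 78.1 against 5.49 CPM (log2 ratio 3.83, 3.50 to 4.17), and among the next were *Ccn2* (2.87), *Myh11* (26.4 against 3.73, 2.82), *Ptprz1* (2.51) and *Cemip* (2.22). On the lower side were *Gas7* (10.1 against 53.4, -2.40), *Col23a1* (-2.14), the integrin ligand gene *Edil3* (13.7 against 58.2, -2.08) and *Sema3a* (20.8 against 59.7, -1.52), the semaphorin named by the study for bAPC 1. Of the YAP targets 6 of 13 were 2-fold higher than in bAPC 1, and of the smooth muscle genes 3 of 12.

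Against the bCAPs, 173 genes (1.90%) were higher and 272 (2.98%) lower. *Ptprz1* was at 83.5 against 5.97 CPM (3.81, 3.37 to 4.26) and *Ankrd1* at 78.1 against 7.31 (3.42), ahead of *Lrrc15*, a matrix-associated leucine-rich repeat protein gene (26.4 against 3.29, 3.00), *Flt1* (46.6 against 6.95) and *Galnt18* (192 against 29.1). Those furthest below were *Hp* (12.0 against 308, -4.68), *Bmp5* (1.07 against 21.1), the secreted factor gene *Ndnf* (1.93 against 28.0), *Cdh18*, *Pde1a* and *Lgr5* (3.22 against 23.0). Here 4 of 13 YAP targets were higher and 13 of 38 S-phase genes were lower. *Cemip* was at 868 against 160.4 CPM (2.44) and *Pkp2* at 42.1 against 8.78 (2.26).

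The leading genes of bAPC 4 were also high in 2 of the white clusters, in cells that took no part in choosing them. In the white library, whose 1999 labelled cells fall into 7 clusters, wAPC 1 (462 cells) had 12 of the 20 genes at least 2-fold above the other white cells, beside 0.343% of all genes in that comparison, and a median log2 ratio of 1.22 over the 20. *Ccn2* was at 305 CPM in wAPC 1 and at 27.1 in wAPC 3 to 166 in wFAPLs among the larger clusters, and *Ptprz1* was at 44.3 (40.9 to 47.8) in wAPC 1, 31.1 in wAPC 2, 15.3 in wFAPLs, 6.61 in wAPC 3, 5.98 in wCAPs and 5.89 in wAPC 4. *Ptchd4*, named by the study for wAPC 1, is among the 12. The differentiating wFAPLs, only 15 cells, had 15 of the 20 past 2-fold, in a comparison where 9.15% of all genes were, with *Ptprz1* at 233 CPM and smooth muscle contractile genes summing to 62687 CPM. In these cells 8 of 9 mural markers tested were also at least 2-fold higher, with a sum of 3154 CPM against 87.7 in wAPC 1 and at most 309 elsewhere, and their part in the result was not tested. In wFAPLs 3 of the 20 were past 2-fold (1.94% of all genes), and in wAPC 2 (1.06%), wAPC 3 (0.188%), wAPC 4 (2.10%) and wCAPs (0.617%) none was. Over all genes, Spearman's rho with the log2 ratios of bAPC 4 was 0.35 in wAPC 1, but 0.12 in differentiating wFAPLs and 0.16 in wAPC 2. In the other white clusters it lay between -0.36 in wAPC 3 and 0.05 in wAPC 4. *Cemip*, the most abundant gene of the cluster after *Thbs1* among the 20, was not past 2-fold in wAPC 1 (130.4 CPM, log2 ratio 0.94) and was highest in wFAPLs (180.2 CPM).

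In wAPC 1 the YAP target median was 0.46 with 2 of 13 at least 2-fold higher, and the smooth muscle median 0.60 with 2 of 12, beside 0.343% of all genes. In wFAPLs these medians were 0.29 with 1 of 13 and 0.52 with 2 of 12, beside 1.94% of all genes. In the 15 differentiating wFAPLs the values were 1.03 with 7 of 12 and 2.89 with 11 of 12, beside 9.15% of all genes. The white counts rest on 1 library and carry the same lack of replication. The levels in brown and white cells come from separate libraries, so a difference between the depots cannot be told apart from one between libraries.

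**Figure D4:**
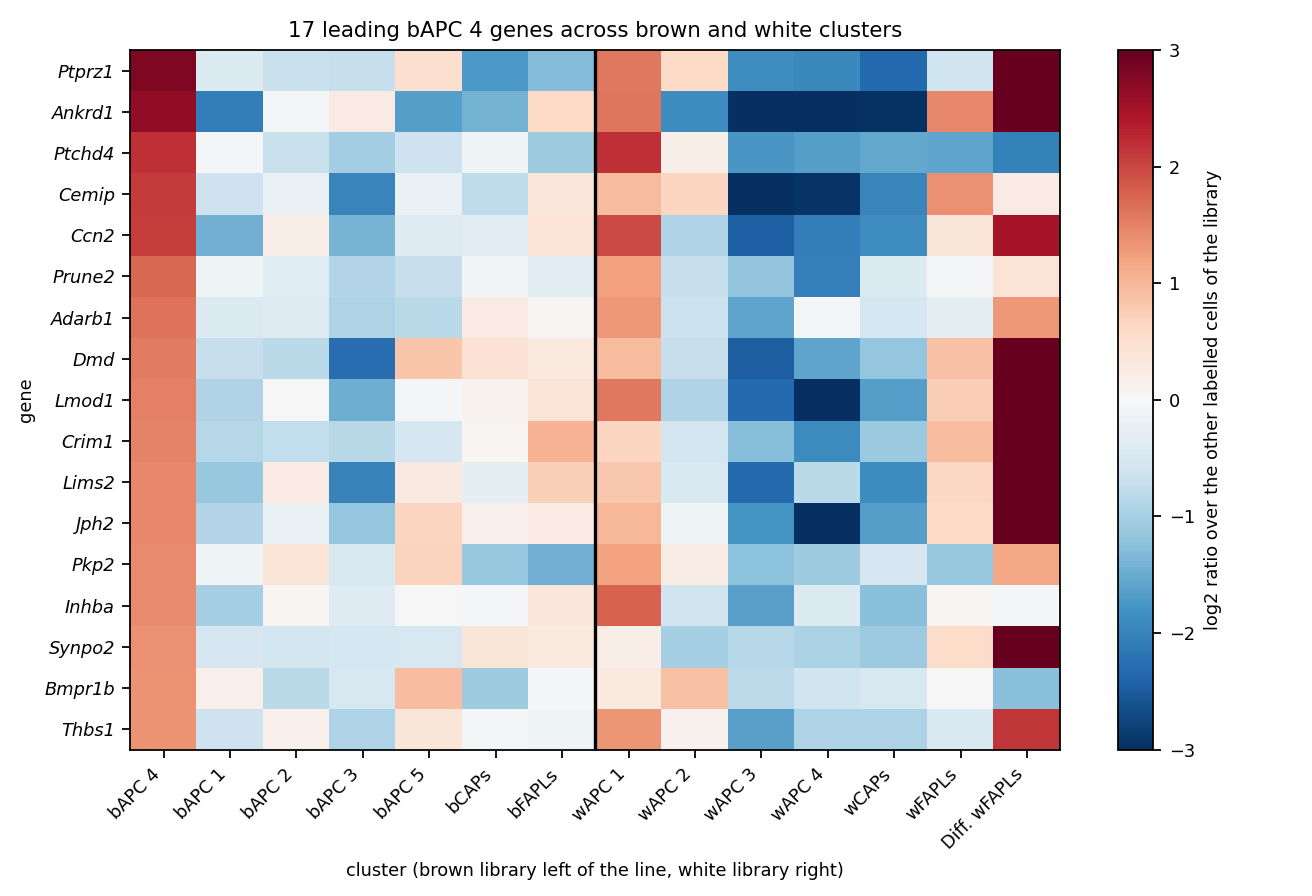
Log2 ratio of 17 leading bAPC 4 genes (rows) in each brown and white cluster (columns) over the other labelled cells of the same library, red higher and blue lower, with colours limited at 3. The bAPC 4 column was used to choose the genes. In the white library the wAPC 1 and the 15-cell differentiating wFAPL columns are the reddest, with medians over the 20 genes of 1.22 and 2.60.

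The share of male cells was highest in bAPC 4, with an interval that overlapped with those of 4 of the 6 other clusters, and *Ptprz1* was lower in them. A cell was called female with at least 1 *Xist* UMI and no UMI of 4 Y-linked genes, and male in the opposite case. In bAPC 4, 30 cells were male and 108 female, or 21.7% male (15.2 to 29.6%), against 17.9% in bCAPs, 17.4% in bFAPLs, 13.4% in bAPC 3, 13.1% in bAPC 1, 10.3% in bAPC 2 and 7.08% (3.11 to 13.5%) in bAPC 5, so its interval lay apart from those of bAPC 2 and bAPC 5 alone. *Ptprz1* was at 38.8 CPM (27.3 to 53.4) in male and 94.8 (84.9 to 105) in female bAPC 4 cells, while in the other clusters it was at 13.6 in male and 12.0 in female cells. The log2 ratio was therefore 1.51 (0.91 to 2.07) in male and 2.99 (2.79 to 3.19) in female cells, whose intervals do not overlap. *Ccn2* (1.55 and 2.17), *Dmd* (0.80 and 1.67) and *Prune2* (0.75 and 1.92) were also lower in male cells, and *Cemip* (2.11 and 2.12), *Thbs1* (1.37 and 1.33) and *Inhba* (1.46 and 1.39) were level.

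All 20 leading genes had a ratio above 0 in both sexes, and 15 were at least 2-fold higher in male cells. In male cells the intervals of *Prune2* (0.75, -0.01 to 1.45), *Lims2* (0.59, -0.50 to 1.55) and *Jph2* (0.54, -0.37 to 1.36) included 0. The male values rest on 30 cells and 37 *Ptprz1* UMIs. As no label ties a cell to a pup, a difference between sexes cannot be told apart from one between pups. Median depth was 30722 UMIs in male and 31431 in female bAPC 4 cells.

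**Figure D5:**
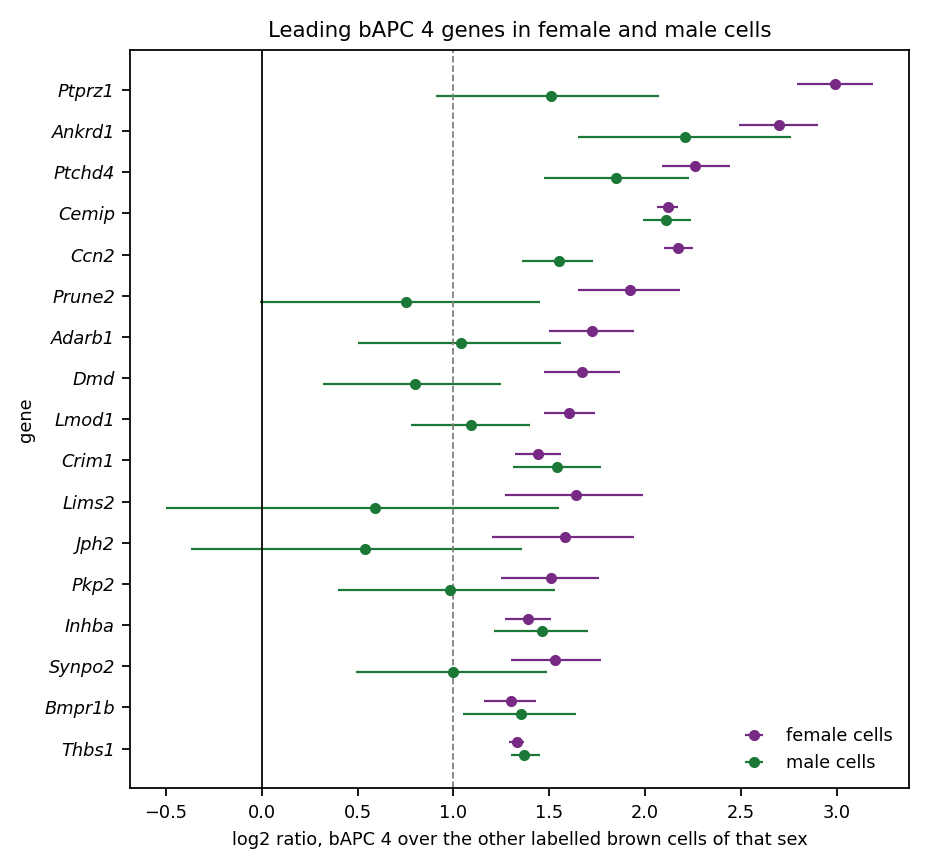
Log2 ratio of bAPC 4 over the other labelled brown cells of the same sex for 17 leading genes, in female (purple) and male (green) cells, with 95% counting intervals. The solid line marks no difference and the dashed line 2-fold. For Ptprz1 the female value is 2.99 and the male value 1.51, and for Cemip both are near 2.1.

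Several properties of the RNA differed between bAPC 4 and the other cells together, some of them shared with other clusters, and their part in the results was not tested. Long genes were over-represented among the leading ones: the 20 had a median genomic span of 141 kb, against 28.1 kb over all genes tested, and 11 of them spanned over 83.7 kb, the longest of 5 equal classes of genes. The 15 leading lower genes had a median of 71.0 kb with 7 in that class. Of the 88 genes at least 2-fold higher in bAPC 4, 51 were in that longest class. Of all genes in the class, 2.84% were at least 2-fold higher in bAPC 4, beside 0.981% of all genes. The share was 3.01% in bCAPs, 2.84% in bAPC 5, 1.67% in bFAPLs and 1.00% in bAPC 1, and 0 in bAPC 2 and bAPC 3. The median log2 ratio of bAPC 4 was -0.13 in the shortest class (up to 9.26 kb) and 0.09 in the longest, and that of bAPC 1 -0.11 and 0.25. Across 8964 genes, ratio and span had a Spearman's rho of 0.30 in bAPC 4, 0.54 in bAPC 1 and -0.71 in bAPC 2. Transcripts of ribosomal protein genes made up 20.8% of bAPC 4 UMIs and 22.1% of the others, with 20.5% in bCAPs, 20.4% in bFAPLs and 24.7% in bAPC 2. *Malat1*, a nuclear RNA, made up 0.822% and 0.663%. It was at 0.828% in bAPC 1, 0.808% in bFAPLs and 0.799% in bCAPs, and lower in bAPC 5 (0.676%), bAPC 2 (0.361%) and bAPC 3 (0.317%). The 13 YAP targets had a median span of 17.4 kb, with 3 in the longest class, and of the 4 past 2-fold *Ccn2* spans 3.24 kb, *Ankrd1* 8.14 kb, *Nuak2* 17.4 kb and *Crim1* 176 kb.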

How the data were processed

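The authors deposited raw UMI counts per gene and cell from Cell Ranger 7.0.1 (mm10), 1 matrix per depot, with 32285 genes. Cluster names were taken from the barcode table published with the study, of which the first 1999 brown and 1999 white barcodes were at hand; none of its values were used. All 1999 passed the study's limits as applied here (3900 to 7700 genes, 1.7 to 5% mitochondrial UMIs, 6000 to 60000 UMIs), which kept 6137 of 7009 brown cells. Counts were summed per cluster and expressed as CPM, with exact Poisson intervals for levels, Clopper-Pearson intervals for shares and conditional binomial intervals for ratios. With 1 library per depot no p-value was computed. Genes counted had at least 10 CPM in either sum and a 2-fold difference. Named genes were *Ptprz1*, the 20 highest and 15 lowest log2 ratios at 20 CPM or more, up to 3 members and the most abundant member of each gene list, and markers named by the study; other genes named were chosen after their values were seen. Of the 20 leading higher genes 3 are not named, and they and some others are not reported here. The cluster and the 44 gene lists were chosen with earlier results of these data known, and 1 list was added later.

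Cell cycle phase was scored with scanpy 1.11.5. Scrublet, run at an expected rate of 5%, marked 0 of 7009 cells and therefore did not work here, so no doublets were removed. Cells were thinned to 10000 UMIs without replacement, and none fell short. Gene positions are from GENCODE M21 on GRCm38. Cell Ranger was run by the authors with its default settings, which in this release count intronic reads. Alternatives were thinning, carried-over labels, G1 cells, 1 sex, other scalings and other filters on low genes.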

Additional observations from a re-analysis of the deposited data

How the results depend on the processing

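The *Ptprz1* ratio (2.79) was 3.15 among G1 cells, 3.08 with the bAPC 4 cells given their own label back by their 15 nearest neighbours (an alternative chosen after seeing the data), 3.00 after thinning, 2.99 in female cells, 2.48 with labels carried over to all filtered brown precursor cells and 1.51 in male cells. It stayed within its interval under the other scalings, weightings and without bAPC 3. The count of 88 higher genes became 44 at a minimum of 50 CPM and 1370 with 1 UMI in each sum, and the count of 61 lower genes 6 and 874, 145 after thinning (when 120 were higher), 99 with the cells given their label back and 38 with carried-over labels. The G2/M list median was -0.09 among G1 and 0.28 among male cells, and that of the S-phase list 0.00 among G1 cells. The YAP target median was 0.57 and the smooth muscle median 0.45 in male cells, the latter 0.46 in female cells. The *Ptprz1* ligand median, whose genes change with the minimum, was 0.46, 0.18, 0.03 and 0.01 with 1 UMI, with 50 CPM, with carried-over labels and in male cells. *Hist1h1b* turned to 0.32 among G1 cells, *Fabp4* to -0.08 with the cells given their label back, *Pparg* to -0.06 with carried-over labels and *Zic1* to 0.29 in male cells. Of 400 values of single named genes under these settings, 329 stayed within their interval, 70 moved, the last 3 among them, and 1 (*Hist1h1b*) reversed while past 2-fold in the main setting. Neighbours returned the bAPC 4 label to 106 of its 142 cells (74.6%), 19 going to bAPC 1, and gave it to 22 cells of other labels. The causes were not tested. No paired analysis was possible because each depot has 1 library and no test was run.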

Other observations

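Among brown precursor cells that passed the filter without a label at hand, the nearest labelled neighbours gave 260 to bAPC 4 and 3704 to other clusters, and *Ptprz1* was at 73.5 CPM in the former and 14.7 in the latter. All 20 leading genes were at least 2-fold higher in those 260 cells. The neighbours were found from the expression of these cells, so this is a description. The other gene lists are read beside the 0.981% of all genes at least 2-fold higher and the 0.680% at least 2-fold lower. Immediate early and stress genes had 1 of 16 at least 2-fold higher in bAPC 4, the heat shock gene *Hspa1b* at 19.7 CPM against 7.15 (log2 ratio 1.46, 1.12 to 1.80), and a median of 0.24, with *Dusp1* at 33.7 against 20.1. Among 26 neural adhesion and guidance genes tested, none was 2-fold higher and 1, *Plxna2*, was lower. Of 13 Wnt signalling genes 1 was 2-fold lower, the R-spondin receptor gene *Lgr5* at 3.22 CPM against 10.6, with a median of -0.21 and *Rspo2* at 29.6 against 51.6. Both cytokine and acute-phase genes past 2-fold of the 10 tested, *Hp* and *Cxcl5*, were lower. Cholesterol synthesis and unfolded protein response genes had none past 2-fold of 15 and 16 tested, with medians of 0.07 and 0.09.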
